A study of Mus musculus with 6 samples.

Results

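Janus kinases (JAK), signal transducers and activators of transcription (STAT) and suppressors of cytokine signalling (SOCS) were followed in mouse Lin-CD117+ hematopoietic stem cells. The 10 genes were taken by symbol: the kinases *Jak1*, *Jak2*, *Jak3* and *Tyk2*, the transcription factors *Stat3*, *Stat5a* and *Stat5b*, and the feedback inhibitors *Socs2*, *Socs3* and *Cish*. They are 10 of the 18121 genes in the table, and 10 of the 10912 that averaged 1 FPKM or more and entered the test. FPKM is the number of fragments per kilobase of transcript, scaled to the mapped fragments of the library. The 3 GA libraries came from cells treated for 24 h with glycyrrhizic acid, a saponin from licorice, and the 3 Ctrl libraries from cells in normal culture without it. The GA concentration of this experiment was not given in the sources used here. The labels name no genetic change in either group. The study's methods prepare such cells from the bone marrow of C57BL/6 mice of 8 weeks by removing lineage-positive cells and selecting for CD117, the receptor encoded by *Kit*. Cells gated in this way also include committed progenitors. Each library is bulk RNA, in which fewer cells of a type and less RNA per cell cannot be told apart. The labels do not say whether replicates are separate mice or cultures, and a p-value given here covers the spread among these libraries alone, which may be technical.

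Many cytokine receptors of blood cells have no enzyme activity of their own and rely on JAK proteins bound to their tails. Ligand binding lets the kinases phosphorylate each other, the receptor and the STAT proteins, which then pair, enter the nucleus and bind DNA. Among the genes that STATs switch on are *Cish*, *Socs2* and *Socs3*, whose proteins bind the receptor or the kinase and damp the signal. In stem and progenitor cells the JAK2 to STAT5 route is known for sustaining megakaryocyte, erythroid and stem cell output. The transcripts measured here give the amount of each component and of its feedback genes. Phosphorylation was not measured.

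The feedback inhibitors are transcribed when STATs bind near them, so the reference windows around gene starts were searched for the letters STAT dimers prefer, TTCNNNGAA, and the stretches that hold them are shown. This word of 9 letters reads the same on both strands, and its matches are in capitals below, in stretches of 30 bases written 5′ to 3′ along the gene. RefSeq windows of GRCm38.p6, from 250 bases before to 50 bases after the start, were given for 9 of the 10 genes, and *Socs2* was not matched. *Cish* held 2 matches, whose first letters lie at bases 1 and 12 after the start, and *Socs3* held 1 match, whose first letter lies at base -154, counted back from the start. The *Cish* stretch is chr9:107296654-107296683 on the plus strand, which lies in the annotated first exon of a longer *Cish* transcript. The *Socs3* stretch is chr11:117969502-117969531 on the minus strand, inside the annotated span of the gene but outside its annotated exons.
Cish: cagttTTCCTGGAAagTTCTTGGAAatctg
Socs3: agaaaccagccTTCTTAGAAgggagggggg
The other 7 genes with a window held no match. Over all 32851 windows, 8.3% held at least 1 match and 0.46% held 2 or more. These are matches of letters and no evidence that a STAT was bound in these cells.

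None of the 10 genes was called between GA and Ctrl libraries in the limma test, adjusted over all tested genes (Benjamini-Hochberg, adjusted p under 0.05). The 4 kinases, *Stat3*, *Stat5b* and *Socs3* had negative log2 fold changes (GA minus Ctrl, on the log2(FPKM + 1) scale), and *Stat5a*, *Socs2* and *Cish* had positive ones, of which those of *Socs2* and *Cish* turned to -2.37e-05 and -0.01 once all libraries had been set to a common sum. All 10 lay between -0.11 and 0.08. Their 95% confidence intervals reached from -0.26 to 0.30 at the widest, that is from 0.836-fold to 1.23-fold. No gene of the table was called in this test either (0.0%), while 13.5% of the tested genes, and 0 of the 10, had an unadjusted p under 0.05. The median log2 fold change of the 10 genes was -0.06, beside 0.01 for all tested genes. Without GA replicate 1 it was -0.01, beside 0.04 for all tested genes, and with the transcript length trend of each library also removed it was 0.01, beside 0.04, with 6 of the 10 genes positive and 4 negative. With each library rescaled to the same sum, the median was -0.12 for the 10 genes, beside -0.04 for all tested genes. That fit gave 1 positive and 9 negative values among the 10, and 3641 and 7271 among all tested genes. Every GA library lay below every Ctrl library for 3 of the 10 genes (*Jak1*, *Stat5b* and *Socs3*), beside 8.29% of all tested genes. With the length trend removed, the groups overlapped for *Jak1* and *Stat5b*, and *Socs3* alone of these stayed apart. The share of all tested genes apart in that setting was not counted. No gene of the 10 had every GA library above every Ctrl library, beside 11.6% of all tested genes.

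**Figure D1:**
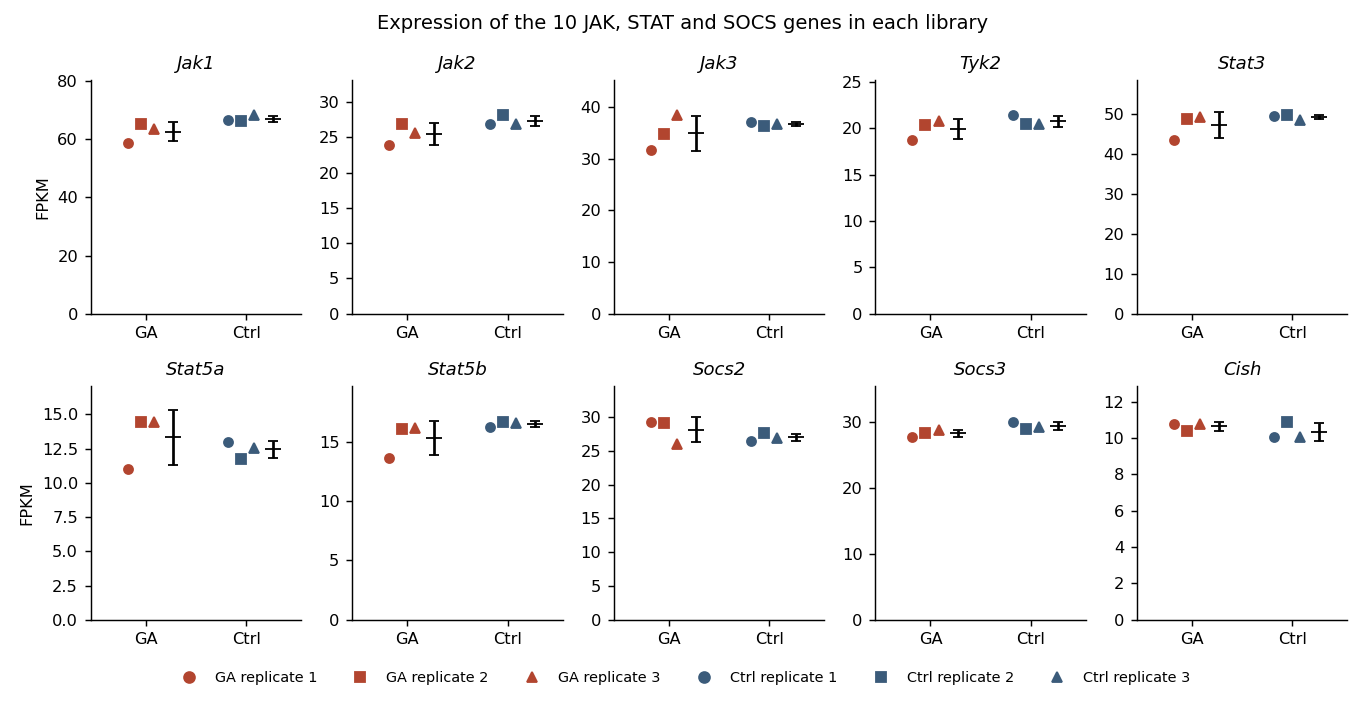
Expression of the 10 genes in FPKM, each panel on its own axis from 0, with 1 point per library (circle, square and triangle for replicates 1, 2 and 3), the GA libraries left of the Ctrl libraries, and the mean ± SD beside them. GA replicate 1 (red circle) is the lowest of the 6 libraries in 8 of the 10 panels, all but *Socs2* and *Cish*.

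GA replicate 1 stood apart. For 8 of the 10 genes it held the lowest FPKM of the 6 libraries, and the median deviation of the 10 genes from the Ctrl mean was -0.17 in this library on the log2(FPKM + 1) scale, against -0.02 in GA replicate 2 and -0.01 in GA replicate 3. Over all tested genes the same library deviated by a median of -0.04, and the share of them lowest in it was not counted. Its values summed to 555449 FPKM, against 525018 and 515444 in the other GA libraries and 508672 to 511802 in Ctrl. Its deviations ran with transcript length across the tested genes (Spearman's rho = -0.59, against -0.31 and -0.18 in the other GA libraries and -0.06 to 0.07 in Ctrl), which is a description across genes that share a library. Genes of at least 4000 nt deviated by a median of -0.13 in this library (2942 tested genes), and the 6 of the 10 genes that are of that length by -0.19. The log2 fold change of each of the 10 genes is therefore also given without GA replicate 1 or another library, and with the length trend of each library removed, where that moves it by more than 1.5 times or turns it. With that trend removed, the median deviation of the 10 genes in GA replicate 1 was -0.09. Total reads per library were not part of the table, so the depth behind each value is unknown.

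**Figure D2:**
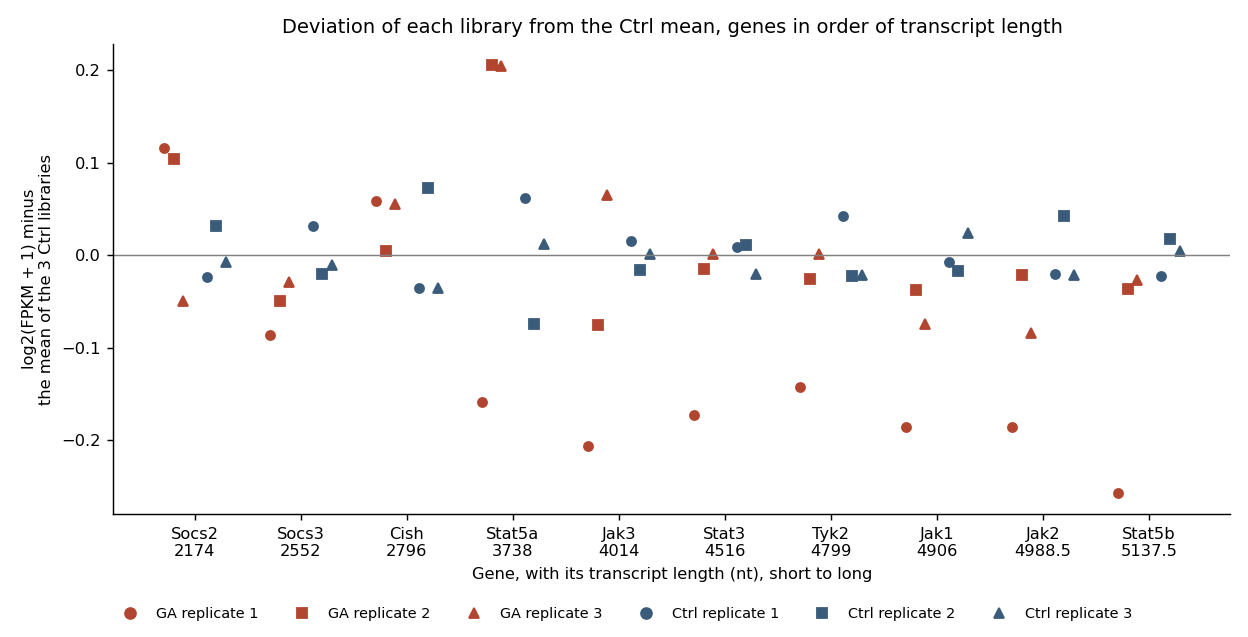
Deviation of each library from the mean of the 3 Ctrl libraries on the log2(FPKM + 1) scale, for the 10 genes in order of transcript length (nt under each name), with GA points left of Ctrl points. In GA replicate 1 (red circles) the 7 genes from *Stat5a* to *Stat5b* lie between -0.26 and -0.14, and *Socs2* and *Cish* lie at 0.12 and 0.06.

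Among the kinases, *Jak1* was the most abundant of the 10 transcripts. It encodes the kinase shared by the interferon, IL-6 family and common gamma chain receptors and lies at chr4:101152367-101265282 (GRCm38, minus strand). Its level was 58.9, 65.4 and 63.7 FPKM in GA replicates 1, 2 and 3, against 66.8, 66.3 and 68.3 FPKM in Ctrl replicates 1, 2 and 3. All 3 GA libraries lay below all 3 Ctrl libraries, with GA replicate 1 the lowest. The means were 62.6 ± 3.37 FPKM in GA and 67.1 ± 1.01 FPKM in Ctrl (SD, n = 3 each), a log2 fold change of -0.10 (SE 0.05; 95% confidence interval -0.21 to 0.01; adjusted p = 0.418 by limma). The exact two-sided permutation p was 0.1, the smallest that 3 against 3 libraries can give. Without GA replicate 1 the log2 fold change was -0.06, with the length trend removed it was -0.05, and with both it was -0.03. With the length trend removed the groups overlapped. Rescaling each library to the same sum gave -0.16 (interval -0.305 to -0.013; adjusted p = 0.436 by limma).

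*Jak2*, the kinase of the erythropoietin and common beta chain receptors, lies at chr19:29251828-29313080 (plus strand). Its level was 23.8, 26.85 and 25.7 FPKM in the GA libraries, against 26.9, 28.1 and 26.85 FPKM in the Ctrl libraries. The highest GA library equalled the lowest Ctrl library, so the groups met without crossing. GA minus Ctrl it gave -0.10 on the log2 scale (SE 0.05; interval -0.22 to 0.03; adjusted p = 0.474 by limma). It was -0.05 without GA replicate 1 as with the length trend removed, and -0.02 when these were combined.

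*Jak3*, which works with the common gamma chain in lymphoid cytokine receptors, lies at chr8:71676296-71690575 (plus strand) and was measured at 31.6, 34.7 and 38.3 FPKM in GA, against 37.0, 36.2 and 36.6 FPKM in Ctrl. The GA libraries spread on both sides of the Ctrl libraries, with SDs of 3.37 FPKM in GA and 0.406 FPKM in Ctrl. On the log2 scale the difference was -0.07 (SE 0.07; interval -0.22 to 0.07; adjusted p = 0.694 by limma). It was -0.01 without GA replicate 1, -0.04 with the length trend removed and 0.01 with both, while leaving out GA replicate 3 gave -0.14. In the annotation *Jak3* shares 404 exonic bases, 7.5% of its own, with *Insl3* on the same strand, so reads of this stretch cannot be assigned with certainty.

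*Tyk2*, which serves the type I interferon and IL-12 family receptors, lies at chr9:21104068-21131243 (minus strand). It was measured at 18.69, 20.35 and 20.75 FPKM in GA, against 21.38, 20.41 and 20.42 FPKM in Ctrl. GA replicate 1 lay below all Ctrl libraries, GA replicate 2 just under the lowest of them, and GA replicate 3 within their range. Its log2 fold change was -0.06 (SE 0.06; interval -0.18 to 0.07; adjusted p = 0.725 by limma), and -0.01 without GA replicate 1 as with the length trend removed, and 0.02 with both. Of the other libraries, leaving out GA replicate 3 gave -0.08 and Ctrl replicate 1 -0.03. An antisense gene, *1700084C06Rik*, covers 554 exonic bases (8.1%) of *Tyk2*, and since no strand setting was given, reads of the pair cannot be told apart.

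The STAT genes lie side by side on chromosome 11. In GRCm38, *Stat5b* spans chr11:100780731-100850724 (minus strand), *Stat5a* spans chr11:100859351-100885169 (plus strand) and *Stat3* spans chr11:100885098-100939540 (minus strand). The exons of *Stat5a* and *Stat3* overlap by 72 bases at their ends on opposite strands, 1.0% of *Stat5a* and 0.8% of *Stat3*. *Stat5a* and *Stat5b* are close paralogs. Of the 50-nt windows of *Stat5a*, 15.33% occur also in *Stat5b*, and 11.08% of those of *Stat5b* occur in *Stat5a*, so part of their reads could be split either way by the counting.

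*Stat3*, the factor downstream of the IL-6 family and G-CSF receptors, was the second most abundant of the 10 transcripts. Its level was 43.6, 48.7 and 49.3 FPKM in GA, against 49.6, 49.6 and 48.6 FPKM in Ctrl. GA replicates 2 and 3 fitted between the lowest and highest Ctrl library, and GA replicate 1 lay below them all. The log2 fold change was -0.06 (SE 0.05; interval -0.18 to 0.06; adjusted p = 0.676 by limma). It was -0.01 without GA replicate 1, -0.02 with the length trend removed and 0.02 with both, and -0.09 without GA replicate 3.

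*Stat5a* and *Stat5b* encode the factors that carry the erythropoietin signal. *Stat5a* was measured at 11.03, 14.48 and 14.47 FPKM in GA, against 13.02, 11.76 and 12.55 FPKM in Ctrl. GA replicate 1 lay below all Ctrl libraries and GA replicates 2 and 3 lay above all of them, so *Stat5a* had the widest spread of the 10 genes, with a coefficient of variation of 10.9% over the 6 libraries. The log2 fold change was 0.08 (SE 0.10; interval -0.13 to 0.30; adjusted p = 0.775 by limma; exact permutation p = 0.6). Without GA replicate 1 it was 0.20 (SE 0.06; interval 0.08 to 0.33), which was not called after adjustment (adjusted p = 0.096 by limma), where 1.03% of all tested genes were called. It was 0.02 without GA replicate 2, 0.02 without GA replicate 3 and 0.05 without Ctrl replicate 2. With limma's array weights, which give less weight to libraries far from the fit and whose estimation stopped before it reached its tolerance, *Stat5a* was the only one of the 10 genes called, at 0.19 (adjusted p = 0.0419), in a fit that called 9.26% of all tested genes as higher. Over the 18 alternatives the adjusted p of *Stat5a* ranged from 0.0419 to 0.965.

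*Stat5b*, measured at 13.6, 16.0 and 16.2 FPKM in GA, against 16.2, 16.7 and 16.5 FPKM in Ctrl, had every GA library below every Ctrl library. GA replicates 2 and 3 lay just under the lowest Ctrl library, and GA replicate 1 well below them. The log2 fold change of -0.11 (SE 0.07; interval -0.26 to 0.05; adjusted p = 0.544 by limma) was the most negative of the 10. It was -0.03 without GA replicate 1, -0.05 with the length trend removed and -0.001 with both. With the length trend removed the groups overlapped. The exact permutation p was 0.1, the smallest the design allows.

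The ratio of *Stat5a* to *Stat5b*, per length, was higher in each GA library than in any Ctrl library. It was 0.809, 0.903 and 0.895 in GA, against 0.803, 0.705 and 0.759 in Ctrl, with means of 0.869 ± 0.052 in GA and 0.756 ± 0.049 in Ctrl (SD, n = 3 each). *Stat5a* thus made up 44.7%, 47.4% and 47.2% of the summed *Stat5a* and *Stat5b* level in GA, against 44.5%, 41.3% and 43.2% in Ctrl. GA replicate 1 and Ctrl replicate 1 were almost equal. With the length trend removed, on the FPKM + 1 scale, the ratios were 0.808, 0.904 and 0.899 in GA, against 0.823, 0.727 and 0.777 in Ctrl, and the groups overlapped. Of the 45 pairs among the 10 genes, 2 had ratios that did not overlap between groups, this one and *Jak2* to *Socs2*, beside 18.8% of all pairs of tested genes. The ratio was described without a test.

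**Figure D3:**
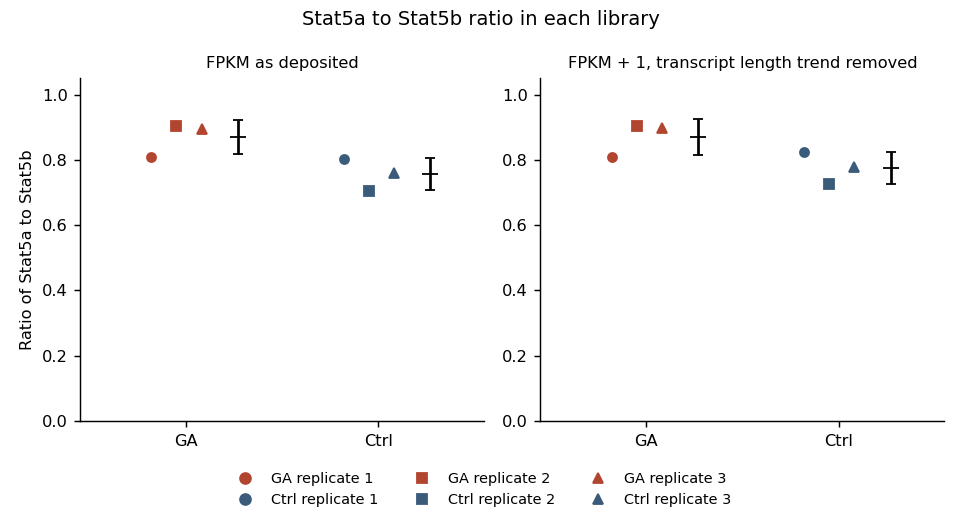
Ratio of the *Stat5a* level to the *Stat5b* level in each library, on an axis from 0, with GA left of Ctrl and the mean ± SD beside the points. The GA libraries lie at 0.809 to 0.903 and the Ctrl libraries at 0.705 to 0.803 as deposited (left panel), while with the length trend removed (right panel) GA replicate 1 at 0.808 falls below Ctrl replicate 1 at 0.823.

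Over the 6 libraries the feedback inhibitors averaged 27.6 (*Socs2*), 28.9 (*Socs3*) and 10.48 FPKM (*Cish*). *Socs2*, which restrains growth hormone and other STAT5-coupled receptors, lies at chr10:95385362-95417180 (minus strand). Its level was 29.4, 29.1 and 26.1 FPKM in GA, against 26.5, 27.6 and 26.9 FPKM in Ctrl. GA replicates 1 and 2 lay above all Ctrl libraries and GA replicate 3 below them. This gave a log2 fold change of 0.06 (SE 0.06; interval -0.07 to 0.18; adjusted p = 0.723 by limma). It was 0.03 without GA replicate 1 as without GA replicate 2, and 0.11 without GA replicate 3. It was the shortest of the 10 transcripts, with a median length of 2174 nt. The difference vanished when each library was rescaled to the same sum (log2 fold change -2.37e-05).

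*Socs3*, which blocks JAK activity at the shared IL-6 family receptor and at the G-CSF receptor, lies at chr11:117966079-117970047 (minus strand). It was measured at 27.7, 28.4 and 28.9 FPKM in GA, against 30.1, 29.1 and 29.2 FPKM in Ctrl. It had the narrowest spread of the 10 genes (coefficient of variation 2.8%), and its GA libraries all lay below its Ctrl libraries by a small margin. The means were 28.3 ± 0.58 FPKM in GA and 29.5 ± 0.573 FPKM in Ctrl (SD, n = 3 each), a log2 fold change of -0.05 (SE 0.05; interval -0.15 to 0.04; adjusted p = 0.651 by limma; exact permutation p = 0.1). This value was -0.04 without GA replicate 1 and -0.06 with the length trend removed.

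*Cish* encodes CIS, a SOCS family protein that competes with STAT5 for receptor sites and is a classical STAT5 target. It lies at chr9:107296026-107302784 (plus strand) and was the least abundant of the 10, at 10.79, 10.36 and 10.76 FPKM in GA, against 10.04, 10.90 and 10.04 FPKM in Ctrl. Ctrl replicate 2 was the highest library and the groups overlapped. Its log2 fold change was 0.04 (SE 0.06; interval -0.09 to 0.17; adjusted p = 0.831 by limma), and -0.01 after rescaling each library to the same sum. It was 0.08 without Ctrl replicate 2, and 0.02 without Ctrl replicate 1 as without Ctrl replicate 3. The antisense genes *Gm17040* and *Gm17041* cover 4.1% and 7.5% of its exonic bases, with the same limit on strand as for *Tyk2*.

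**Figure D4:**
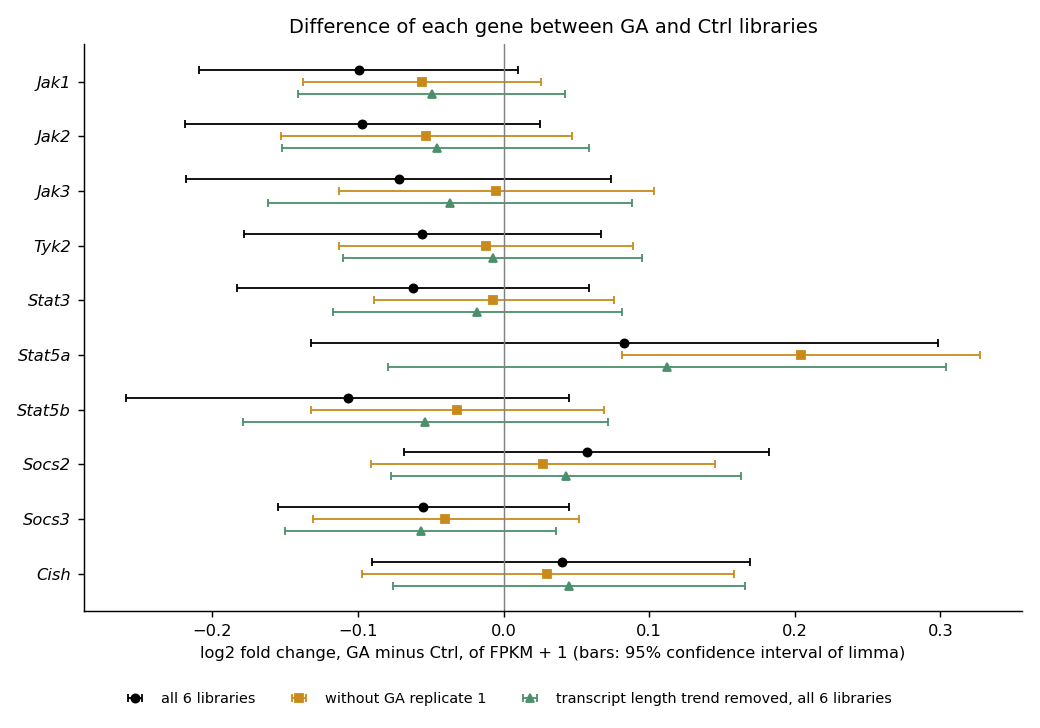
log2 fold change of FPKM + 1, GA minus Ctrl, of the 10 genes with 95% confidence intervals from limma, for all 6 libraries (black circles), without GA replicate 1 (orange squares) and with the transcript length trend of each library removed (green triangles). Of the intervals drawn, only that of *Stat5a* without GA replicate 1, 0.08 to 0.33, leaves out 0, and no gene was called after adjustment in these 3 fits.

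Compared by mean FPKM over the 6 libraries, the order was *Jak1* (64.9), *Stat3* (48.2), *Jak3* (35.8), *Socs3* (28.9), *Socs2* (27.6), *Jak2* (26.4), *Tyk2* (20.3), *Stat5b* (15.9), *Stat5a* (12.9) and *Cish* (10.48). These means stood between percentile 44.1 (*Cish*) and percentile 88.1 (*Jak1*) of the tested genes. Neighbours in this order kept it in all 6 libraries except for *Socs3* over *Socs2* and *Socs2* over *Jak2*, each in 4 of 6. The ranges of these 2 pairs overlapped, and so did those of *Stat5b* and *Stat5a*, although *Stat5b* exceeded *Stat5a* in each library. The order of the other neighbours held beyond the spread of the libraries.

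*Socs2* and *Cish*, both known as STAT5 targets, were highest in different libraries, GA replicate 1 and Ctrl replicate 2. The 3 tested genes whose log2(FPKM + 1) was most like that of *Socs2* over the 6 libraries were *Srp14*, *Il1b* and *Gm1673* (Pearson's r = 0.997, 0.996 and 0.993), and those most like *Cish* were *Kcng2*, *Gtf2f2* and *Ngrn* (r = 0.994, 0.984 and 0.980). With 6 libraries and 10911 genes compared, 13 genes for *Socs2* and 15 for *Cish* reached 0.95, and these values only describe the profiles. *Il1b*, an inflammatory cytokine, was measured at 46.2, 45.4 and 36.5 FPKM in GA, against 37.9, 40.1 and 38.6 FPKM in Ctrl. It shows the profile of *Socs2*, with GA replicates 1 and 2 high and GA replicate 3 low.

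The rest of the pathway was counted in 7 lists with 107 genes, of which 86 were tested. By limma 0 of the 86 were called, 14 (16.3%) had an unadjusted p under 0.05, 45 had positive and 41 negative log2 fold changes, and the median was 0.01. Every GA library lay below every Ctrl library for 8 of them and above for 6. Over all tested genes the corresponding shares were 13.5% for the unadjusted p, 8.29% below and 11.6% above. Rescaling each library to the same sum gave 26 positive and 60 negative values among the 86, and 3641 and 7271 among all tested genes, so the counts of signs below hold for FPKM as deposited. Without GA replicate 1 they were 50 and 36 among the 86, and 7062 and 3837 among all tested genes. With array weights 7 of the 86 were called higher and 7 lower, beside 9.26% and 4.12% of all tested genes, and those named below are given with that value.

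**Figure D5:**
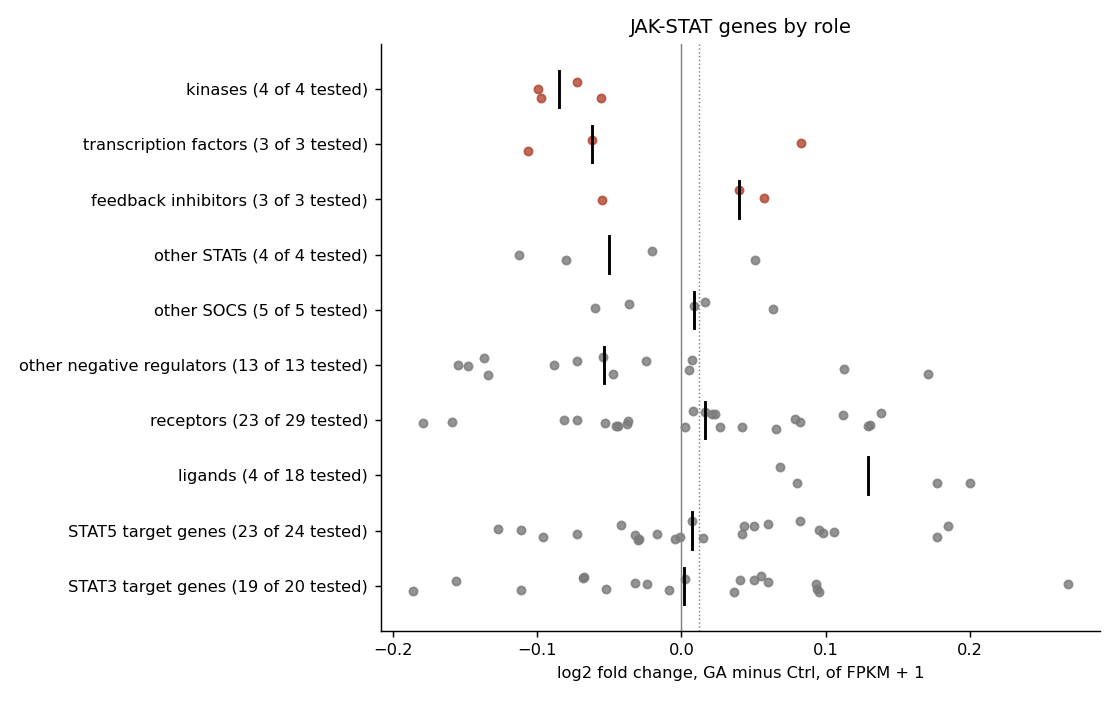
log2 fold change of FPKM + 1, GA minus Ctrl, of every tested gene by role, with the 10 genes named above in red, the other lists in grey, the median of each list as a black bar and that of all tested genes, 0.01, as a dotted line. The kinases lie at -0.10 to -0.06 with a median of -0.08, and the other lists spread on both sides of 0, except for the 4 tested ligands, which lie above it. With the length trend removed and GA replicate 1 left out (not drawn), 2 kinases were positive and 2 negative, with a median of -0.005.

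Of the receptors, 23 of 29 were tested, 14 with positive and 9 with negative values (median 0.02), and 3 had an unadjusted p under 0.05. *Csf2rb*, the common beta chain, had means of 77.1 ± 4.14 FPKM in GA and 76.7 ± 2.84 FPKM in Ctrl (SD, n = 3 each). Smallest in p were *Ifnar2*, a chain of the type I interferon receptor (log2 fold change 0.13, adjusted p = 0.311 by limma), and *Il6st*, the signalling chain of the IL-6 family (-0.18, adjusted p = 0.333, and -0.12 without GA replicate 1 and -0.10 with the length trend removed). *Kit*, the receptor used to select the cells, was measured at 16.0, 20.4 and 21.2 FPKM in GA, against 19.6, 17.1 and 17.8 FPKM in Ctrl (log2 fold change 0.07, adjusted p = 0.823 by limma, and 0.19 without GA replicate 1).

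Ligands were mostly below the limit of 1 FPKM, and 4 of 18 were tested, all with positive values (median 0.13). *Osm*, an IL-6 family cytokine and known STAT5 target, was measured at 20.80, 20.03 and 18.06 FPKM in GA, against 16.84, 18.00 and 16.83 FPKM in Ctrl. The GA libraries all lay above the Ctrl libraries, and the log2 fold change was 0.18 (SE 0.06; adjusted p = 0.278 by limma, and 0.0162 with array weights). *Cntf* (0.20, adjusted p = 0.481) and *Il15* (0.08, adjusted p = 0.765) were close to the limit or low, with means of 1.28 and 4.34 FPKM in GA and 0.987 and 4.05 FPKM in Ctrl. With the length trend removed their log2 fold changes were 0.12 and 0.01. *Thpo*, which encodes thrombopoietin, a growth factor of megakaryocytes, was listed at 0 in 5 libraries and at 0.03 FPKM in GA replicate 3.

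The other STATs gave 1 positive and 3 negative values among 4 tested genes (median -0.05), with no unadjusted p under 0.05. *Stat6*, the factor of IL-4 signalling, was the most abundant at 35.4 ± 2.62 FPKM in GA and 34.1 ± 1.98 FPKM in Ctrl (SD, n = 3 each), and *Stat2*, a factor of interferon signalling, had a log2 fold change of -0.11 (adjusted p = 0.628 by limma), and -0.02 without GA replicate 1. The log2 fold change of *Stat6* was 0.05, and 0.11 without GA replicate 1. The other SOCS genes gave 3 positive and 2 negative values among 5 (median 0.01). *Socs4*, *Socs5* and *Socs6* had log2 fold changes of 0.06, 0.02 and -0.06, and adjusted p = 0.783, 0.955 and 0.823 by limma. Without GA replicate 1 they were 0.13, 0.05 and 0.01.

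The other negative regulators, tyrosine phosphatases, PIAS proteins, CBL ligases and SH2B adaptors, gave 4 positive and 9 negative values among 13 (median -0.05), and 5 had an unadjusted p under 0.05. *Ptpn11* encodes SHP2, a phosphatase recruited to cytokine receptors, and was the most abundant of them. It was measured at 98.4, 101 and 102 FPKM in GA, against 110, 115 and 109 FPKM in Ctrl, and every GA library lay below every Ctrl library. The log2 fold change was -0.15 (SE 0.04; interval -0.24 to -0.05; adjusted p = 0.238 by limma, and 0.019 with array weights), and -0.09 with the length trend removed. *Sh2b3*, the adaptor LNK that restrains JAK2, was measured at 57.1, 58.5 and 56.3 FPKM in GA, against 61.8, 62.6 and 64.9 FPKM in Ctrl, and the groups did not overlap either. Its log2 fold change was -0.14 (SE 0.04; interval -0.23 to -0.04; adjusted p = 0.249 by limma, and 0.0299 with array weights). *Ptpn1*, a phosphatase that acts on JAK2 and TYK2, gave -0.13 (adjusted p = 0.256 by limma, and 0.0416 with array weights), also without overlap. *Ptpn6*, which encodes the phosphatase SHP1 and was chosen after its values were seen, was the only one of the 86 genes called without GA replicate 1 (log2 fold change 0.21, adjusted p = 0.0461 by limma), and its value over all 6 libraries was 0.11 (adjusted p = 0.564, and 0.0147 with array weights).

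Genes known as STAT5 targets gave 12 positive and 11 negative values among 23 tested (median 0.01, with 3 under an unadjusted p of 0.05), and those known as STAT3 targets gave 10 and 9 among 19 (median 0.00, with 4 under it). Without GA replicate 1 the STAT5 targets gave 17 positive and 6 negative values (median 0.05, beside 0.04 for all tested genes) and the STAT3 targets 8 and 11 (median -0.00). Besides *Osm*, the smallest p among the STAT5 targets belonged to *Id1*, an inhibitor of basic helix-loop-helix factors, with 23.2, 23.2 and 21.2 FPKM in GA, against 21.8, 18.5 and 18.9 FPKM in Ctrl (log2 fold change 0.19, adjusted p = 0.307 by limma and 0.0243 with array weights). With the length trend removed the log2 fold change of *Id1* was 0.09. The most abundant were *Ccnd3*, a D-type cyclin (-0.03, adjusted p = 0.898), and *Cdkn1a*, the cell cycle inhibitor p21 (-0.00, adjusted p = 0.99), with -0.10 and -0.12 without GA replicate 1. Among the STAT3 targets, *Ier3*, an immediate early gene, gave the largest value of any listed gene, with 59.8, 47.6 and 48.7 FPKM in GA, against 40.6, 42.1 and 45.9 FPKM in Ctrl. Its GA libraries lay above its Ctrl libraries, at a log2 fold change of 0.27 (SE 0.08; interval 0.08 to 0.46; adjusted p = 0.249 by limma), and of 0.16 without GA replicate 1. *Bcl3*, a nuclear cofactor of NF-kB, gave -0.19 (adjusted p = 0.311, and 0.014 with array weights). *Pim1*, a kinase on both lists, gave -0.11 (adjusted p = 0.364, and 0.0143 with array weights), and *Junb* 0.05 (adjusted p = 0.82), which was -0.02 without GA replicate 1. Tested genes whose promoter window held at least 1 TTCNNNGAA had a median log2 fold change of 0.01 (745 genes), as did those without (8168 genes, 0.01).

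Cell type markers were read beside these values. Of 12 markers of stem and multipotent progenitors, 11 averaged 1 FPKM or more, and *Mecom* was below it. Their summed level was 594 to 620 FPKM in GA and 614 to 626 FPKM in Ctrl. The 12 megakaryocyte and platelet markers summed to 19836 to 27204 FPKM in GA and 21974 to 22662 FPKM in Ctrl. The 12 neutrophil markers all had positive log2 fold changes and summed to 2075 to 2186 FPKM in GA, against 1679 to 1902 FPKM in Ctrl. Over all tested genes 5981 values were positive and 4931 negative. The other lists summed to 2407 to 2710 FPKM in GA and 2272 to 2586 FPKM in Ctrl for 11 markers of monocytes and macrophages, and to 182 to 202 FPKM in GA and 169 to 182 FPKM in Ctrl for 7 of mast cells and basophils. Erythroid markers (9, with *Klf1*, *Alas2* and *Epb42* under 1 FPKM) summed to 967 to 1431 FPKM in GA and 1135 to 1169 FPKM in Ctrl. Of the B lymphoid markers, 6 of 7 were under 1 FPKM. Of the 10 T and NK lymphoid markers, 4 averaged 1 FPKM or more (*Cd4*, *Il7r*, *Lat* and *Nkg7*) and *Cd3d*, *Cd3g*, *Cd8a* and *Ncr1* were under it. *Cd3e* and *Gzma* were not in the table. The T and NK list summed to 320 to 360 FPKM in GA and 321 to 337 FPKM in Ctrl. Nearly all of this sum came from *Cd4*, *Il7r*, *Lat* and *Nkg7*, and it is not read as a level of T or NK cells. Stroma and endothelium markers summed to 83.1 to 98.2 FPKM in GA and 95.8 to 102 FPKM in Ctrl. Positive and negative values numbered 3 and 9 for megakaryocyte and platelet markers, and 4 and 7 for monocyte and macrophage markers. They numbered 5 and 2 for mast cells and basophils, 6 and 5 for stem and multipotent progenitors, and 3 and 3 for erythroid markers. For T and NK markers they numbered 2 and 2, for B lymphoid markers 1 and 0, and for stroma and endothelium 0 and 3. No marker was at 0 in every library and none was called by limma. The part of these cells in the values of the 10 genes was not tested.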

How the data were processed

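TRIzol-extracted total RNA of 3 GA and 3 Ctrl samples was made into DNBSEQ libraries and read on a BGISEQ-500. The deposited values are FPKM, which the authors calculated with RSEM after cleaning the reads. The submitters' processing notes list HISAT2 2.0.4, Bowtie2 2.2.5 and the build mm10. For the annotation and the strand setting, the entry is: not given in the sources used here. Because FPKM is divided by length and by the library total, a bias towards short transcripts or a few very abundant genes in 1 library moves the values of its other genes. Columns of group averages were not used, and the number of per-sample columns that matched no sample was 0.

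Samples were grouped by title. limma 3.58.1 (R 4.3.3) with a mean-variance trend, two-sided and unpaired, was fitted on log2(FPKM + 1) of the 10912 genes averaging 1 FPKM or more. Adjustment (Benjamini-Hochberg) was over all of them. Fold changes on this scale understate the change of low genes. In a search for the step of 1 fragment among low values, 64.1% to 69.5% of the values fell, to within 0.15, on whole numbers, and therefore reads were not recovered, no count test was run and depth is unknown. Lengths and positions came from GENCODE for GRCm38, which mm10 is another name of. A length was found for 98.2% of the tested genes (loess span 0.5 for the trend). Python 3.11.15, pandas 2.3.3 and scipy 1.17.1 gave the descriptions. The limma step was tested on simulated data, with known changes larger than those of the 10 genes and no outlying library or length trend. The 10 genes and all lists were chosen with earlier results of these data known. Named genes were the 10, the 2 with the smallest p and the 2 with the highest mean of each other list, *Kit*, *Thpo*, and the 3 profiles most like *Socs2* and *Cish*, and the values of some genes under this rule are not reported here. Tried as alternatives were 0.1 and 0.5 as pseudocount, testing every gene, a minimum of 5 FPKM, rescaling to a sum of 1000000, median of ratios scaling, leaving out each library, a replicate block, removal of the length trend (alone, with the block and without GA replicate 1), limma without a trend and limma with array weights.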

Additional observations from a re-analysis of the deposited data

How the results depend on the processing

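With 3 libraries a group and no read counts, differences of the size of the intervals given above could not be told from 0, and levels under 1 FPKM were not tested. Over the 18 alternatives 0 of the 10 genes were called, except 1 with array weights (*Stat5a*, 0.187, adjusted p = 0.0419 by limma). The genes called over the table were 0 higher and 0 lower as reported, and 0 higher and 3 lower after rescaling to a common sum, 0 and 2 with the length trend removed, 20 and 45 with the length trend removed and GA replicate 1 left out, and 1010 and 450 with array weights, for which the cause was not tested. Leaving out each library in turn gave 0 to 52 higher and 0 to 60 lower, the largest numbers both without GA replicate 1, and 0 of the 10 genes. Directions turned as follows, with values on the log2 scale, none of them called. After rescaling, *Socs2* was -2.37e-05, *Cish* -0.0148, *Stat6* -0.00633, *Socs5* -0.0369, *Csf2rb* -0.0508 and *Junb* -0.00867. With the length trend removed and GA replicate 1 left out, *Jak3* was 0.0128, *Tyk2* 0.0155, *Stat3* 0.0181, *Stat2* 0.0064, *Socs6* 0.0112, *Csf2rb* -0.0073, *Il15* -0.0189 and *Junb* -0.0398. Leaving out single libraries gave -0.0371 to 0.0816 for *Socs5*, -0.0353 to 0.0352 for *Csf2rb*, -0.117 to 0.0087 for *Socs6*, -0.105 to 0.03 for *Ccnd3*, -0.123 to 0.0699 for *Cdkn1a*, -0.0206 to 0.127 for *Junb* and -0.00361 to 0.187 for *Kit*. With array weights *Csf2rb* was -0.0438. The other directions of the 10 genes held. The *Stat5a* to *Stat5b* log2 ratio difference was 0.20, and 0.15 to 0.25 with each library left out. The replicate block called 0 genes, gave *Stat5a* 0.08 (adjusted p = 0.817 by limma), and changed no call. Replicate numbers were not used to pair the samples in the main fit, since the labels give no shared origin. Same-numbered libraries had deviations correlated at -0.169, -0.130 and 0.004 across genes, and differently numbered ones at -0.131 to 0.191. These values cannot decide whether the samples were prepared in pairs.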
